A study of Homo sapiens with 101 samples.

Results

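The aryl hydrocarbon receptor gene AHR and 4 genes known as its transcriptional targets, AHRR, CYP1A1, CYP1B1 and TIPARP, were followed in HT1080 cells given 1 of 11 compounds. The members were all probe sets of the array assigned to 1 of these 5 genes alone, which gave 5 of 19775 genes and 8 of the 40914 probe sets assigned to a single gene. AHR (202820_PM_at), AHRR (229354_PM_at), CYP1A1 (205749_PM_at) and TIPARP (212665_PM_at) had 1 probe set each, and CYP1B1 had 4 (202434_PM_s_at, 202435_PM_s_at, 202436_PM_s_at and 202437_PM_s_at). The 4 single probe sets were bright enough in at least 1 group to be tested, and the 4 of CYP1B1 were not.

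HT1080 is a human fibrosarcoma cell line. Its RNA was measured on Affymetrix HT HG-U133+ PM arrays after treatment with 1 dose per compound, chosen by the study so that total p53 increased by a factor of 1.5 in every case. The doses were 0.1 µM MMC, 10 ng/ml NCS, 100 µM H2O2, 2 mM ENU, 2 mM GAD, 200 µM tBHQ, 600 µM BRO, 200 µM MMS, 10 µM CUR, 0.3 µM ETP and 30 µM QUE. The labels do not spell the codes out. MMC, NCS, ENU, tBHQ, MMS, CUR, ETP and QUE are usual short forms of mitomycin C, neocarzinostatin, ethylnitrosourea, tert-butylhydroquinone, methyl methanesulfonate, curcumin, etoposide and quercetin, H2O2 is hydrogen peroxide, and GAD and BRO are kept as codes. Treated and control cells alike received vehicle, stated as 0.1% of the medium, and the length of exposure is not given in the sources used here. BRO, CUR, ETP and QUE each had a DMSO control and MMS a control labelled MMS CTL. For MMC, NCS, H2O2, ENU, GAD and tBHQ the control used here was the group labelled DMSO pooled, the remaining control group, whose make-up is not described in the labels. Each group had 6 samples, except MMC and H2O2 with 5. Nothing in the labels says that replicates were separate cultures, so a p-value here is set by the spread among these samples, which may be technical. The arrays read RNA of a whole culture, so a change in every cell and a change in some of the cells cannot be told apart.

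The receptor AHR is a transcription factor that waits in the cytoplasm in a complex with HSP90 chaperones, binds planar aromatic ligands, moves to the nucleus and pairs with ARNT. The pair binds the xenobiotic response element, whose core is GCGTG, and switches on genes of foreign-compound metabolism. CYP1A1 and CYP1B1 encode monooxygenases that oxidise aromatic compounds and are the classical readouts of an active receptor. AHRR encodes a repressor that competes with AHR for ARNT, and TIPARP encodes an ADP-ribosyltransferase that lowers AHR activity, so both belong to feedback loops on the receptor.

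RefSeq promoter windows on GRCh38.p14, each from 250 bases before to 50 bases after a start site, were matched for 4 of the 5 genes, with 7 windows in all. Windows of the 3 target genes that could be tested are shown because the receptor acts through this element. Capitals mark GCGTG on either strand, so that CACGC marks the element on the strand not printed.
AHRR, chr5:321464-321763, plus strand: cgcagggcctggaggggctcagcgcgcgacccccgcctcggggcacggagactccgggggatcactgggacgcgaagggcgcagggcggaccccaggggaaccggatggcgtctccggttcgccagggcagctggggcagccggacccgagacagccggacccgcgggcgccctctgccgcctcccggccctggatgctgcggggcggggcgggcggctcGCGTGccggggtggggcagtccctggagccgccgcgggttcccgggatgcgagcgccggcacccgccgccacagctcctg
CYP1A1, chr15:74725479-74725778, minus strand: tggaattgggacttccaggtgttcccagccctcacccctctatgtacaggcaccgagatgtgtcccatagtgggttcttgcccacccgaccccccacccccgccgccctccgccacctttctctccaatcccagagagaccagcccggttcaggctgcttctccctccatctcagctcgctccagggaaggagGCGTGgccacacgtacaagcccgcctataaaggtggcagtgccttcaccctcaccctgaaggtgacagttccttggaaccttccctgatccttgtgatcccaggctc
TIPARP, chr3:156674340-156674639, plus strand: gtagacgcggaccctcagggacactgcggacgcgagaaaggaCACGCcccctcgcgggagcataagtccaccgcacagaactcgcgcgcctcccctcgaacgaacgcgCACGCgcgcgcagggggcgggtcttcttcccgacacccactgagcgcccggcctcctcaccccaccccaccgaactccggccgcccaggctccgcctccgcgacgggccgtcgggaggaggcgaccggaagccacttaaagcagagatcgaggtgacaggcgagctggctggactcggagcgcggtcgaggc
Positions are counted from the start site as 0. The AHRR window held 1 core, which begins at -30 within TCGCGTG, a match to the extended form TNGCGTG. The CYP1A1 window held 1 core, which begins at -57. The TIPARP window held 2 cores on the opposite strand, with leftmost bases at -208 and -142. A second AHRR window (chr5:322360-322659) held 2 cores, the AHR window (chr7:17298402-17298701) held 1 core that begins at 37, and the other two TIPARP windows held none. GCGTG is short and was present on either strand in 36.5% of all 35116 windows of this length, and TNGCGTG in 5.51%, so a match only describes these letters.

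Values are the authors' log2 probe set signals, and a difference of 1 is a factor of 2. The arrays fell into 6 sets with like quantiles within a set, one holding DMSO pooled and its 6 compounds and the others 1 compound with its control. The median of an array was lowest with BRO (2.88) and highest with ETP (3.52), so levels were compared only within a set. Mesenchymal markers (VIM, FN1, CAV1, LGALS1 and CD44) were high in all 6 control groups, with VIM means from 13.01 to 13.25. EPCAM, CDH1, PTPRC, CD3E, ALB and PECAM1 had control means of at most 3.99, while the CYP3A4 probe set reached 4.86. In all, 6 samples stood apart from their group, by a spread from the other samples of 1.61 to 2.36 times the group's median spread: QUE replicates 2 and 3, ETP replicate 2, MMS CTL replicate 3, tBHQ replicate 1 and CUR DMSO replicate 5. Member results and calls that touch them are given with and without them.

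Each compound was tested against its control with limma, over 21612 probe sets with a mean log2 signal of at least 4 in at least 1 of 17 groups. A call of a change needed an adjusted p under 0.05 (Benjamini-Hochberg over all of them) and a change of at least 1.5-fold, 0.585 on the log2 scale. Of 44 tests on the 4 bright members, 5 were called, 2 higher and 3 lower, where 7.6% of all 237732 tests over the 11 compounds were called. A share of this size in 4 genes says little about the members as a group, and the results lie in the single genes. Where groups are said below not to overlap, the share of all probe sets without overlap is not given. Such a statement only describes the samples of that gene.

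The called changes fell in 4 compounds. In GAD, AHR and AHRR fell, 2 of 4 members, where 26.8% of all probe sets were called, 12.6% higher and 14.1% lower. In MMS, AHRR fell, where 10.2% were called, 4.34% higher and 5.85% lower. In QUE, AHR rose, where 13% were called, 7.02% higher and 5.93% lower. In ENU, CYP1A1 was called higher, where 10.3% were called, 4.67% higher and 5.59% lower. The other 7 compounds had 0 of 4 members called by limma. At an unadjusted p under 0.05 there were 0 in MMC and H2O2, 2 in NCS, tBHQ, BRO and ETP and 3 in CUR. No share of all probe sets is given at that unadjusted threshold, so these counts have no background beside them. By the call rule, with adjusted p and fold minimum, the share of all probe sets called was 0.0972% in MMC (0.0972% higher, 0% lower). It was 2.04% in NCS (1.12% and 0.916%) and 0.657% in H2O2 (0.523% and 0.134%). It was 9.84% in tBHQ (5.45% and 4.39%) and 6.82% in BRO (2.86% and 3.96%). It was 1.8% in CUR (1.15% and 0.648%) and 2.19% in ETP (1.54% and 0.652%). Without the fold minimum 13 of 44 member tests had an adjusted p under 0.05, against 19.6% of all tests. The median log2 change of all tested probe sets lay between -0.01 (ETP) and 0.07 (MMS), and that of the 4 members between -0.43 (GAD) and 0.36 (QUE).

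**Figure D1:**
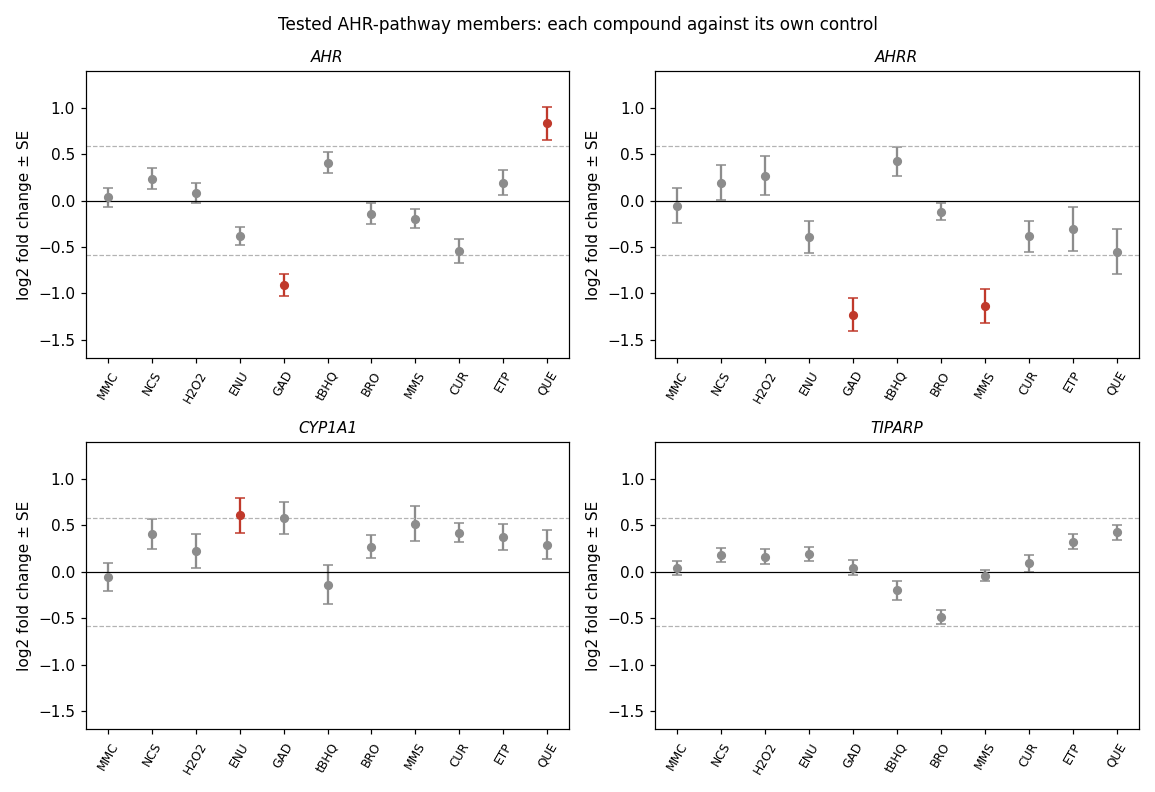
Log2 fold change of the 4 tested members in each compound against its control, with the standard error from limma; red points are called changed and dashed lines mark 1.5-fold. AHR is called lower in GAD and higher in QUE, AHRR lower in GAD and MMS, CYP1A1 higher in ENU, and TIPARP in no compound.

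AHR, the receptor, was measured well above the dimmest signals in every group, with group means from 8.10 to 10.25. It rose with QUE and fell with GAD. With QUE the 6 samples had a lowest, median and highest log2 signal of 9.65, 10.41 and 10.70, and the 6 QUE DMSO samples 8.97, 9.50 and 9.64. The lowest QUE samples were replicates 2 and 1, at 9.65 and 9.87. Replicate 2 lay barely above the highest control (9.647 against 9.644), so the groups did not overlap, but only by a very narrow gap. The means were 10.25 ± 0.40 (SD, n = 6) and 9.42 ± 0.24 (n = 6), a 1.78-fold rise with a log2 change of 0.83 ± 0.18 (SE, adjusted p = 0.0061). The rise was 0.95 without QUE replicate 2, 0.74 without replicate 3 and 0.87 without both (adjusted p = 0.00073 for the last).

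With GAD the AHR signal was 7.74, 8.13 and 8.45 at its lowest, median and highest, against 8.78, 8.99 and 9.29 in DMSO pooled. All 6 GAD samples lay below all 6 controls. The means were 8.10 ± 0.26 and 9.01 ± 0.19 (SD, n = 6 each), a 1.88-fold fall with a log2 change of -0.91 ± 0.12 (SE, adjusted p = 2.61e-05).

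In 3 further compounds AHR passed the p threshold with a change under 1.5-fold. With CUR the samples ran from 7.84 over a median of 8.41 to 8.68, and the controls from 8.70 over 8.94 to 8.97. The groups did not overlap, though the gap between them was narrow. The change was -0.54 ± 0.13 (SE, adjusted p = 0.042). It passed the fold minimum without CUR replicate 2 (-0.59, adjusted p = 0.046) or CUR replicate 5 (-0.61, adjusted p = 0.016), and without CUR DMSO replicate 5 it was -0.55 with an adjusted p of 0.058. With ENU the change was -0.38 ± 0.10 (adjusted p = 0.011), with 5 of 6 samples below all controls. With tBHQ it was 0.41 ± 0.11 (adjusted p = 0.015), with 5 of 6 samples above all controls. It was 0.47 without tBHQ replicate 1 alone and 0.42 without replicate 1 of both tBHQ and DMSO pooled.

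In the remaining 6 compounds AHR did not pass the test. The 5 MMC samples were 8.90, 9.04, 9.26, 8.98 and 9.07, and the 5 H2O2 samples 8.94, 9.22, 9.29, 8.96 and 9.05. Both groups overlapped the 6 DMSO pooled samples, and their changes were 0.04 ± 0.10 and 0.08 ± 0.11. NCS gave 0.24 ± 0.11, ETP 0.19 ± 0.14 (0.11 without ETP replicate 2), BRO -0.14 ± 0.11 and MMS -0.20 ± 0.10 (SE; -0.17 without MMS CTL replicate 3). AHR was above its control in 6 compounds and below it in 5.

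**Figure D2:**
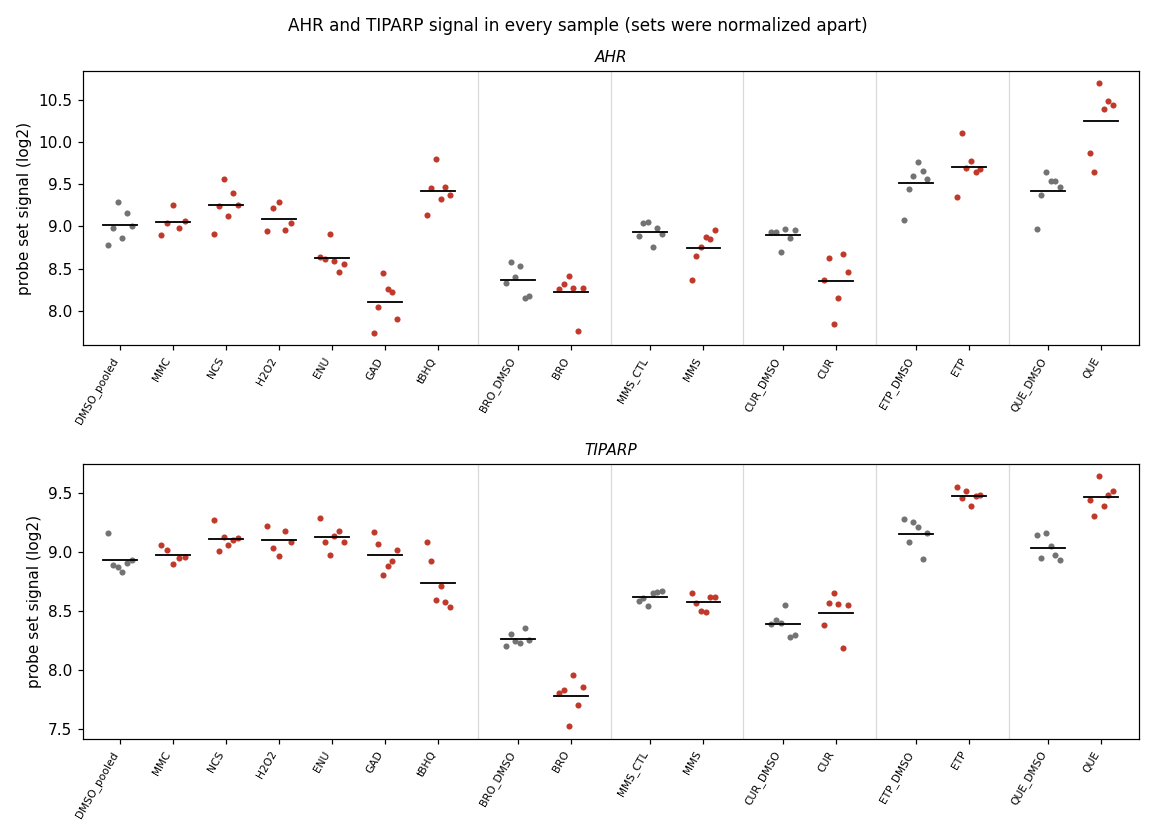
Log2 signal of AHR and TIPARP in each sample, with controls in grey, treated samples in red and a line at the group mean; vertical lines separate the sets, between which levels are not comparable. For AHR the QUE samples lie above and the GAD and CUR samples below all of their controls, and for TIPARP the BRO samples lie below and the ETP and QUE samples above.

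AHRR, the repressor, had group means between 3.99 and 6.54, close to the level of 4 used as the floor of measurement in its dimmest groups. It fell with GAD and with MMS. With GAD the 6 samples were 3.61, 4.20 and 4.38 at the lowest, median and highest, against 4.69, 5.37 and 5.87 in DMSO pooled. All GAD samples lay below all controls. The means were 4.09 ± 0.30 and 5.32 ± 0.38 (SD, n = 6 each), a 2.35-fold fall with a log2 change of -1.23 ± 0.18 (SE, adjusted p = 4.48e-05).

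With MMS the AHRR samples were 3.39, 3.99 and 4.35, against 4.49, 5.19 and 5.51 in MMS CTL. Again no treated sample reached the lowest control. The means were 3.99 ± 0.33 and 5.13 ± 0.37 (SD, n = 6 each) and the log2 change was -1.14 ± 0.18 (SE, adjusted p = 0.00063). Because the MMS mean was just under 4, the fall is given as at least 2.18-fold. Without MMS CTL replicate 3 the change was -1.27.

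In 2 compounds the AHRR value turned on 1 sample. With QUE replicates 1, 3, 4, 5 and 6 lay between 5.31 and 5.54, below all controls (5.68 to 6.53), and replicate 2 was at 6.81, above all of them. The change was -0.55 ± 0.24 (SE, adjusted p = 0.10) with all 6 samples, which is no call. Without replicate 2 it was -0.78 ± 0.15 (adjusted p = 0.0010), and without replicates 2 and 3 it was -0.77 (adjusted p = 0.0024), both past the threshold. With ETP replicate 2 was at 5.11 and the other 5 samples between 6.22 and 6.79. The change was -0.31 ± 0.24 (SE, adjusted p = 0.52), and -0.08 without that sample.

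No other compound had a called AHRR change. tBHQ gave 0.42 ± 0.16 (adjusted p = 0.060), and 0.47 (adjusted p = 0.046) without replicate 1, under 1.5-fold in both cases. ENU gave -0.39 ± 0.17 and CUR -0.39 ± 0.17 (SE), the latter -0.46 without CUR DMSO replicate 5. NCS at 0.19 ± 0.19, H2O2 at 0.27 ± 0.21, MMC at -0.06 ± 0.19 and BRO at -0.12 ± 0.09 did not pass the test. The 5 MMC samples were 4.76, 5.32, 5.40, 5.35 and 5.49 and the 5 H2O2 samples 5.00, 5.79, 6.06, 5.64 and 5.46, which overlapped the controls.

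CYP1A1, the classical induced target, was at or near background throughout. Its mean was below 4 in all 6 control groups (2.95 to 3.81) and reached 4 only with ENU, GAD, MMS and ETP, at 4.15 to 4.33. The probe set passed the filter on dim signals only through those 4 treated groups, so it had to differ from the controls there, and its calls support nothing beyond their own size. The one call was with ENU. The 6 ENU samples were 3.76, 4.10 and 4.94 at the lowest, median and highest, against 3.27, 3.42 and 4.06 in DMSO pooled. The groups overlapped, and 4 of 6 ENU samples lay above all controls. The means were 4.18 ± 0.41 and 3.57 ± 0.31 (SD, n = 6 each), with a log2 change of 0.61 ± 0.19 (SE, adjusted p = 0.025). Set against the level of 4 the rise is at least 1.13-fold. The call was lost without ENU replicate 1 (0.46, adjusted p = 0.031) and without DMSO pooled replicate 2 (0.55), 3 (0.57), 4 (0.57) or 5 (0.58), with adjusted p up to 0.056 without one of these controls. With the replicate number as a block the change was 0.61 ± 0.10 (adjusted p = 0.0012).

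GAD and MMS stood just short of a call for CYP1A1. With GAD the samples were 3.75, 4.11 and 4.77, with 3 of 6 above all controls, and the change was 0.58 ± 0.17 (SE, adjusted p = 0.011), at least 1.11-fold against the level of 4. It passed the fold minimum when GAD replicate 2, 4 or 5 (0.61, 0.66 and 0.62) or DMSO pooled replicate 1 or 6 (0.68 and 0.64) was left out. Replicate 1 was the highest CYP1A1 sample of both groups, and without it in both the change was 0.55 (adjusted p = 0.0023), under the fold minimum. With MMS the samples were 3.89, 4.29 and 4.79, against 3.36, 3.83 and 4.10 in MMS CTL. MMS replicates 1 to 3 were at 4.54 to 4.79, above all controls, and replicates 4 to 6 at 3.89 to 4.04, within the control range. The change was 0.52 ± 0.19 (SE, adjusted p = 0.055), at least 1.25-fold against the level of 4. It was 0.49 without MMS CTL replicate 3, and it was called without MMS replicate 4 (0.61, adjusted p = 0.035) or 6 (0.60, adjusted p = 0.042).

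With CUR the CYP1A1 samples were 2.96, 3.44 and 3.52 and the controls 2.79, 2.96 and 3.09, so 5 of 6 CUR samples lay above all controls at levels below 4. The change was 0.42 ± 0.10 (SE, adjusted p = 0.046), no fold is given since both groups are under the floor, and without CUR DMSO replicate 5 it was 0.40 with an adjusted p of 0.070. The other 7 compounds did not pass the test. NCS gave 0.41 ± 0.16, ETP 0.37 ± 0.14 (0.31 without ETP replicate 2), QUE 0.29 ± 0.16 (0.19 without QUE replicate 2), BRO 0.27 ± 0.13 and H2O2 0.22 ± 0.18. MMC gave -0.06 ± 0.15 and tBHQ -0.14 ± 0.21 (SE). Without tBHQ replicate 1 alone, whose value of 4.34 was 0.86 above the next, tBHQ gave -0.32 ± 0.15. Replicate 1 was the highest CYP1A1 sample of DMSO pooled too, and without it in both groups tBHQ gave -0.23 ± 0.13 (adjusted p = 0.21). CYP1A1 was nominally above its control in 9 of 11 compounds, but in 7 of the 11 both group means were under 4, and 6 of the 11 share 1 set of control samples.

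CYP1B1, the other monooxygenase of the family, gave no signal that could be tested. The group means of its 4 probe sets lay at 1.97 to 2.85, 2.79 to 3.60, 1.73 to 2.68 and 1.56 to 2.39, in the order given above, and the highest of all samples was 3.95 (202435_PM_s_at). The differences between treated and control means over the 11 compounds ran from -0.11 to 0.19. In a limma fit with no filter on dim probe sets none of the 44 tests passed, and the lowest adjusted p was 0.35. At an unadjusted p under 0.05 the count was also 0. At this brightness a small change could not be seen, so these values do not show that CYP1B1 stayed the same.

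**Figure D3:**
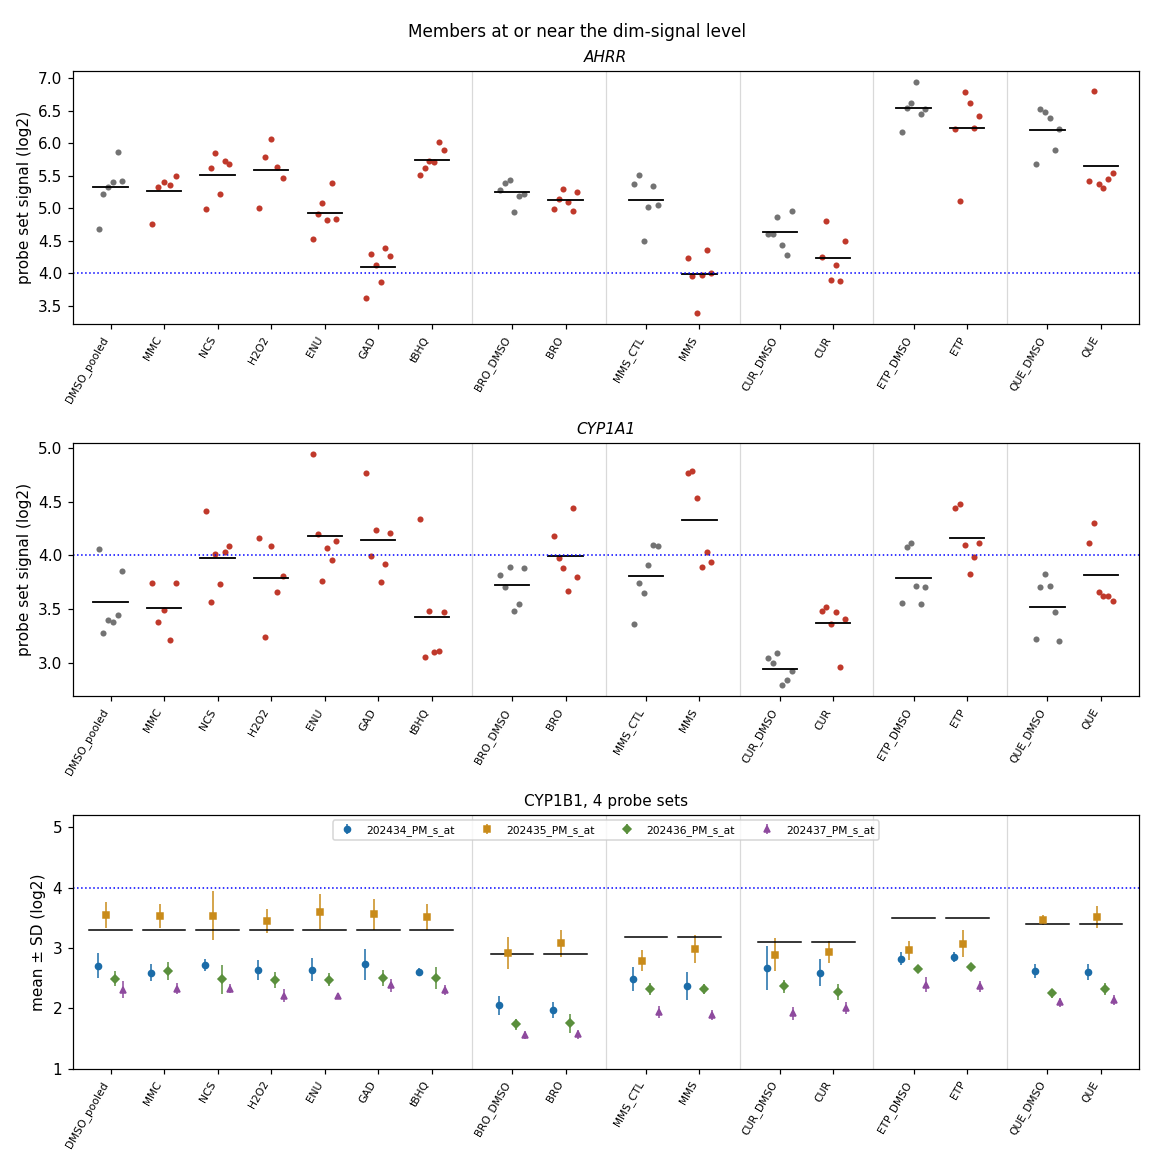
Log2 signal of AHRR and CYP1A1 in each sample (controls grey, treated red, line at the group mean) and mean ± SD of the 4 CYP1B1 probe sets; the dotted line marks the level of 4 and black bars in the lowest panel the median of all probe sets of that set of arrays. GAD and MMS bring AHRR down to about 4, CYP1A1 scatters about that level, and all CYP1B1 group means lie below it.

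TIPARP, the ADP-ribosyltransferase, was well measured, with group means from 7.78 to 9.47, and was called in no compound at the 1.5-fold minimum. Its spread within groups was small, and 3 smaller differences passed the p threshold. The groups did not overlap in these 3, a description for which no share of all probe sets is given. With BRO the samples were 7.52, 7.82 and 7.95 at the lowest, median and highest, against 8.20, 8.25 and 8.35 in BRO DMSO. The change was -0.48 ± 0.08 (SE, adjusted p = 0.00071), with 6 of 6 samples below all controls. With QUE the samples were 9.30, 9.46 and 9.64, against 8.93, 9.01 and 9.16. The change was 0.43 ± 0.08 (adjusted p = 0.0036), with 6 of 6 above all controls, and 0.42 without QUE replicates 2 and 3. With ETP the samples were 9.38, 9.48 and 9.55, against 8.93, 9.18 and 9.27. The change was 0.33 ± 0.08 (adjusted p = 0.035), with 6 of 6 above all controls, and 0.33 without ETP replicate 2.

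In the other 8 compounds TIPARP stayed within 0.20 of its control on the log2 scale and did not pass the test. ENU gave 0.19 ± 0.08, NCS 0.18 ± 0.07, H2O2 0.16 ± 0.08 and CUR 0.09 ± 0.09 (0.07 without CUR DMSO replicate 5). GAD gave 0.04 ± 0.08, MMC 0.04 ± 0.08, MMS -0.04 ± 0.06 and tBHQ -0.20 ± 0.10 (SE). Without tBHQ replicate 1 alone the last was -0.27 (adjusted p = 0.036), still under 1.5-fold. Replicate 1 was the highest TIPARP sample of DMSO pooled too. Without replicate 1 of both groups tBHQ gave -0.22 (adjusted p = 0.063), which did not pass. Without MMS CTL replicate 3 MMS gave -0.06. The 5 MMC samples were 9.05, 9.02, 8.89, 8.94 and 8.96 and the 5 H2O2 samples 9.21, 9.03, 8.96, 9.18 and 9.08, against 8.83, 8.90 and 9.16 in DMSO pooled. For GAD the 95% interval of the TIPARP change was -0.13 to 0.21 and for MMS -0.18 to 0.09, in the compounds where AHRR fell.

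Within the set that holds DMSO pooled, samples with the same replicate number deviated together in these genes, and not in these alone. Over all tested probe sets, deviations of compound and control samples of the same number correlated, with r from 0.23 (GAD) to 0.82 (MMC). Replicate 1 was also the sample farthest from its group over all tested probe sets in 7 of 7 groups. Its spread was 1.23 (GAD) to 1.67 (tBHQ) times the group's median spread. Replicate 1 had the lowest AHRR signal in 7 of 7 groups, and the highest CYP1A1 and the highest TIPARP signal in 7 of 7 groups. It lay below the mean of the other replicates by 0.29 to 0.76 for AHRR and above it by 0.29 to 1.10 for CYP1A1 and by 0.10 to 0.41 for TIPARP. For AHR, replicate 1 was lowest in 6 of 7 groups and replicate 3 highest in 7 of 7. In the other 5 sets replicate 1 was lowest for AHRR in 2 of 10 groups and for AHR in 4 of 10, and highest for CYP1A1 in 0 of 10 and for TIPARP in 3 of 10. The labels do not say what the samples of 1 number share. Without replicate 1 of both the compound and DMSO pooled, AHR with GAD was -0.88 and AHRR with GAD was -1.26, both called. CYP1A1 with ENU was then 0.55 ± 0.12 (SE, adjusted p = 0.0048), under the fold minimum.

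The replicate numbers paired the samples in every compound but MMS and ETP, so each comparison was also fitted with the number as a block. The same 5 changes were called. With no fold minimum, 21 of 44 member tests had an adjusted p under 0.05 with the block, against 13 without it. Of all tests 19.6% passed without the block, and the share with it is not given. The gain is therefore not a result about the members as a group. The 8 gained, all under 1.5-fold, were AHR (adjusted p = 0.0046), CYP1A1 (0.0028) and TIPARP (0.015) with NCS, AHRR (0.0030) and TIPARP (0.022) with ENU, AHRR (0.0028) and TIPARP (0.037) with tBHQ, and AHRR with QUE (0.045). Where these are said above not to pass the test, that holds for the fit without the block.

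**Figure D4:**
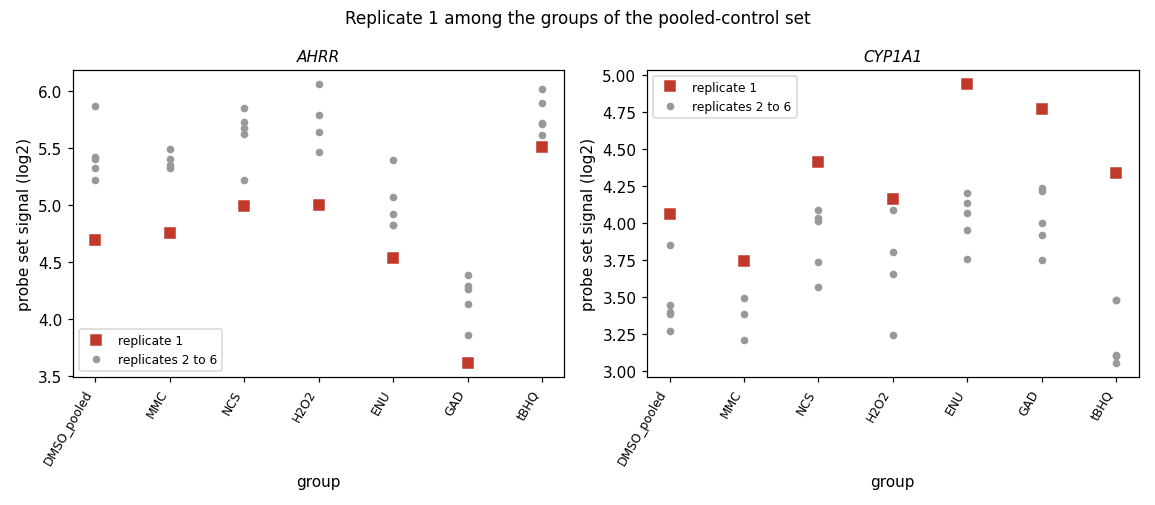
Log2 signal of AHRR and CYP1A1 in the 7 groups of the set with DMSO pooled, with replicate 1 as red squares and the other replicates as grey points. In each of the 7 groups replicate 1 is the lowest AHRR sample and the highest CYP1A1 sample.

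The compounds can be placed in an order for AHR, AHRR and TIPARP by their log2 change, at doses that differ. For AHR the order from highest to lowest was QUE, tBHQ, NCS, ETP, H2O2, MMC, BRO, MMS, ENU, CUR, GAD. For AHRR it was tBHQ, H2O2, NCS, MMC, BRO, ETP, CUR, ENU, QUE, MMS, GAD. For TIPARP it was QUE, ETP, ENU, NCS, H2O2, CUR, GAD, MMC, MMS, tBHQ, BRO. No order is given for CYP1A1, since both group means were under 4 in 7 of 11 compounds. In none of these orders was the difference of any of the 10 pairs of neighbours called. QUE and tBHQ, the first 2 for AHR, differed by 0.42 (95% interval of tBHQ minus QUE -0.79 to -0.06, adjusted p = 0.081). GAD and MMS, the last 2 for AHRR, differed by 0.09 (95% interval of GAD minus MMS -0.65 to 0.46, adjusted p = 0.86).

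Farther apart in the orders, 55 differences were called among 220 (55 pairs of compounds for each of 4 genes), where 10.7% of all probe sets were called over the same pairs. AHR had 22 called pairs, of which QUE was in 9 of its 10 and GAD in 8 of its 10. The widest was GAD minus QUE, at -1.74 ± 0.18 (SE, adjusted p = 4.05e-13). AHRR also had 22, with GAD in 9 of its 10 and MMS in 6 of its 10. CYP1A1 had 5, which rest on levels under or near 4 and are given as a count only. TIPARP had 6, with BRO in 5, and BRO against QUE was the widest at -0.91 ± 0.10. The pairs share controls and compounds and are not independent of each other.

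AHR moved in opposite directions with QUE and GAD, while AHRR lay below its control in both. With QUE, AHR rose by 0.83 and TIPARP was 0.43 above its control, while AHRR (-0.55) and CYP1A1 (0.29) did not pass. AHRR was called lower with QUE once QUE replicates 2 and 3 were left out (-0.77, adjusted p = 0.0024). With GAD, AHR and AHRR fell by 0.91 and 1.23, CYP1A1 was 0.58 above its control and TIPARP at 0.04. With MMS, AHRR fell by 1.14 with AHR at -0.20, CYP1A1 at 0.52 and TIPARP at -0.04. With BRO, TIPARP was 0.48 below its control and AHR, AHRR and CYP1A1 did not pass the test. Since TIPARP was called in no compound, the receptor and all 3 tested targets could not be called together, and that absence is no result.

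A wider list of 32 genes of the pathway was read in the same fits, with the highest-mean probe set of each gene. Of these, 29 had a probe set of their own and 22 were bright enough to be tested. The remaining 3, UGT1A1 and SERPINB2 among them, were not analysed here. ALDH3A1, UGT1A6, CYP2S1, EREG, IDO1, AFMID and IL4I1 were below 4 in all 17 groups, which leaves several further genes that ligands of the receptor induce without a measurement. Counts of called genes, higher and lower, were 0 and 0 in MMC, 0 and 1 in NCS, 0 and 1 in H2O2, 2 and 3 in ENU, 3 and 6 in GAD and 5 and 2 in tBHQ. They were 3 and 4 in BRO, 3 and 4 in MMS, 1 and 0 in CUR, 0 and 0 in ETP and 1 and 2 in QUE. For MMC and ETP, the compounds with no called gene, limma gave 2 and 5 genes at an unadjusted p under 0.05. No share of all probe sets is given at that threshold, so these counts have no background beside them. The share of all probe sets called either way, given above, was 26.8% in GAD, 13% in QUE, 10.3% in ENU, 10.2% in MMS, 9.84% in tBHQ, 6.82% in BRO and under 3% in the other 5 compounds. Counts over so few genes, chosen by name and by brightness, were not tested against those shares. The median log2 change of the 22 genes lay between -0.15 (MMS) and 0.10 (GAD).

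Of 5 tested partners and chaperones, 4 were called in no compound: ARNT, the DNA-binding partner, with changes from -0.21 to 0.25, and the chaperone genes HSP90AA1, HSP90AB1 and PTGES3. ARNT2, a relative of ARNT, fell in 4 compounds, by 0.83 with ENU, 1.30 with GAD, 0.76 with tBHQ and 0.79 with BRO on the log2 scale. Without tBHQ replicate 1 its change with tBHQ was -0.78. With MMS it was at -0.51, and it was called there too without MMS CTL replicate 3 (-0.60).

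Of 4 tested genes of the detoxification battery only NQO1, a quinone reductase, was called. It rose in 6 compounds: ENU (0.92 ± 0.11, SE), GAD (1.38 ± 0.08), tBHQ (1.31 ± 0.08), BRO (1.45 ± 0.11), MMS (1.32 ± 0.08) and CUR (1.05 ± 0.08). Without the samples that stand apart it was 1.35 in tBHQ, 1.30 in MMS and 1.06 in CUR, all called. With QUE, where AHR rose, it was at 0.17. CYP1A2, a neighbour of CYP1A1 on its chromosome and of the same family, did not pass in any compound and was near background, with group means of 4.54 or less, and neither GSTA1 nor NFE2L2, the factor known to drive NQO1 through the antioxidant response, was called. GSTA1, a glutathione transferase, had a mean above 4 only with QUE, at 4.21, so it passed the filter only through that group. Against the level of 4 its change there is at least 0.21 on the log2 scale, and it passed the call rule without QUE replicates 2 and 3.

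The 2 tested enzymes of tryptophan breakdown, a pathway whose products include ligands of the receptor, had control means below 4 in the sets where they were called, so their changes are given as bounds against that level. KYNU, kynureninase, was called higher with GAD (at least 1.94 on the log2 scale), tBHQ (at least 1.29), MMS (at least 2.03) and BRO (at least 0.15). TDO2, which opens the tryptophan ring, was called higher with GAD (at least 1.36), tBHQ (at least 1.68) and BRO (at least 0.06). Elsewhere their control means reached 4.64 (KYNU) and 4.31 (TDO2), and neither was called there. Without tBHQ replicate 1 both stayed called in tBHQ, and without MMS CTL replicate 3 so did KYNU in MMS.

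The 11 tested genes of the last list, reported elsewhere as targets, moved in both directions. ALDH1A3, a retinaldehyde dehydrogenase, fell with GAD (-2.51 ± 0.36, SE), BRO (-1.56 ± 0.16), MMS (-1.29 ± 0.13) and QUE (-1.23 ± 0.41, and -1.52 without QUE replicates 2 and 3). With MMS it was -1.25 without MMS CTL replicate 3. ABCG2, a drug efflux pump, fell in 5 compounds, among them ENU (-0.94) and QUE (-0.97, and -1.07 without QUE replicates 2 and 3), and was called in ETP too without ETP replicate 2 (-0.60). PTGS2, an inducible cyclooxygenase, rose with tBHQ (1.76 ± 0.32, and 1.91 without tBHQ replicate 1) and fell with GAD (-1.57 ± 0.41) and MMS (-0.74, and -0.76 without MMS CTL replicate 3), and without QUE replicates 2 and 3 it was called lower with QUE (-0.93). NEDD9, a scaffold protein of focal adhesions, was called higher with ENU (at least 1.97). Its control means were all under 4, so it passed the filter only through the MMC, NCS, H2O2 and ENU groups. The ENU call therefore supports nothing beyond its own size. NEDD9 was also called lower with tBHQ, where both group means were under 4 (2.81 and 3.74) and no fold is given. IL1B, an inflammatory cytokine, rose with QUE (1.04 ± 0.34, adjusted p = 0.034), a call lost without QUE replicates 2 and 3 (1.03, adjusted p = 0.051). STC2, a secreted glycoprotein, fell with MMS (-1.68 ± 0.11, and -1.69 without MMS CTL replicate 3), where IL24, a cytokine, was called higher (at least 1.26), a call lost without MMS CTL replicate 3 (adjusted p = 0.058), where the change went from 1.54 to 1.48. IL24 was gained in tBHQ without tBHQ replicate 1 (1.60, adjusted p = 0.041), with DMSO pooled replicate 1 kept. VAV3, an exchange factor, was called lower with ENU and with GAD, in each by at least 0.61 against the level of 4. It was also called lower with BRO, where both group means were under 4 (3.30 and 3.92) and no fold is given. Without tBHQ replicate 1, and with DMSO pooled replicate 1 kept, it was called lower with tBHQ too (-0.64). HES1, a transcriptional repressor, fell with GAD (-1.46 ± 0.27). SLC7A5, an amino acid transporter, fell with NCS (-1.02) and H2O2 (-0.81) and rose with tBHQ (0.71, and 0.65 without tBHQ replicate 1), and was called lower with ETP without ETP replicate 2 (-1.07).

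**Figure D5:**
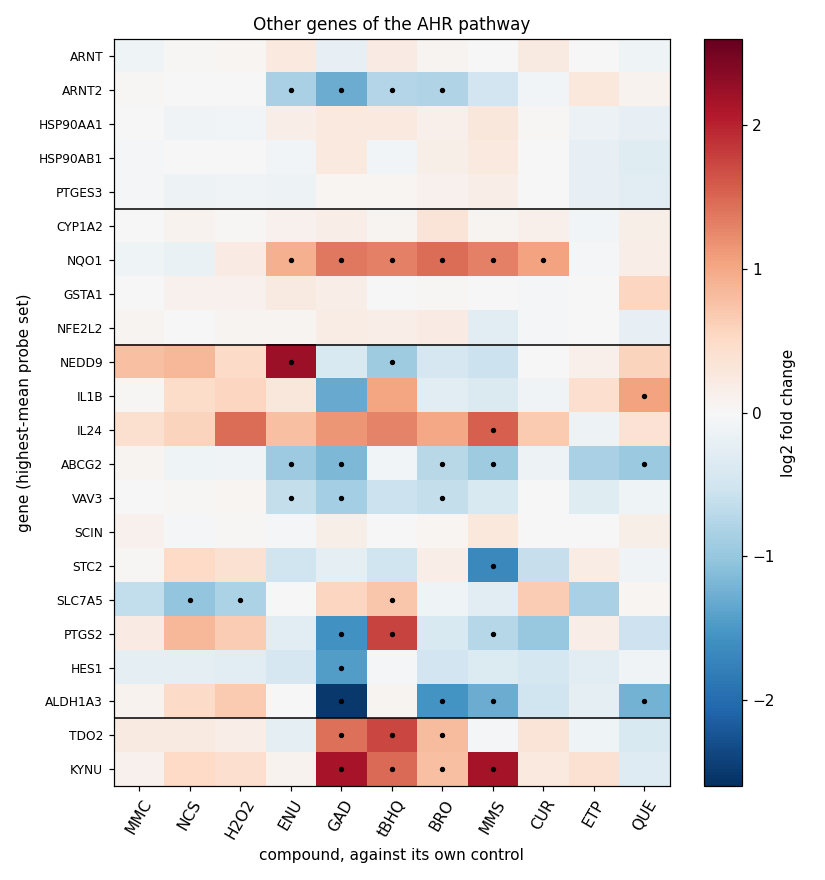
Log2 fold change of the 22 tested genes of the wider list in each compound against its control, with dots on called changes and lines between partners and chaperones, detoxification battery, other reported targets and tryptophan enzymes. NQO1 is called higher in 6 compounds, ABCG2 lower in 5, and ARNT and the 3 chaperone genes in none.

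The genes whose 11 log2 changes were most like those of AHR and AHRR were searched among 1776 genes for AHR and 1775 for AHRR with a change of at least 1 in some compound. The likeness is Pearson's r over 11 compounds, of which 6 share a control, and is given as a description. For AHR they were ABHD17C (r = 0.965), PITPNC1 (0.943) and ARHGAP24 (0.938). ABHD17C, a depalmitoylating enzyme, had changes of 1.15 with QUE and -1.51 with GAD. For AHRR they were TENM4 (0.961), PXK (0.956) and SRPX2 (0.935). TENM4, a teneurin of the cell surface, had changes of -3.43 with GAD and -2.79 with MMS. For CYP1A1 none are given, since most of its changes lie between groups under 4. TIPARP was called in no compound and was not searched.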

How the data were processed

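The authors deposited log2 signals per probe set. The submitters' processing notes name GCRMA and Partek without versions; GCRMA subtracts background, so the lowest values carry little information. Arrays of 1 set look normalized together and were not renormalized. Probe sets were named by the platform annotation, with symbols updated through RefSeq genes (GRCh38.p14); 864 assigned to several genes and 12835 to none were left out. The mean of ETP DMSO array 2-2 and replicate 2 was used as 1 replicate (their difference had an SD of 0.169, that of the next closest pair 0.261), leaving 100 samples on 101 arrays. Each comparison was fitted with lmFit and eBayes in limma 3.58.1 (R 4.3.3), which was tested on simulated data, and pairs of compounds in 1 fit of 17 groups. Figures used matplotlib 3.10.9, pandas 2.3.3 and numpy 2.4.6. All probe sets of the 5 genes were named, of the wider list up to 4 called genes per compound with the largest change, and the 3 genes most like each called member (not CYP1A1, near background); other list genes, and named genes in further compounds, were chosen after their values were seen. The members and lists were chosen with earlier results of these data known. Replicate numbers paired the samples of every compound (each pair r above 0.1, lowest 0.13 in QUE) except MMS (from -0.27) and ETP (from 0.044). The number of arrays limits the precision.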

Additional observations from a re-analysis of the deposited data

Results flagged for a closer look

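Among 136 groups of 1 probe set, 11 had a sample far from all others by Dixon's criterion, which chance meets in about 1 in 20 groups. Of the 11, 5 lay in samples that stand apart over all probe sets or in replicate 1 of the set with DMSO pooled. AHRR was lowest in ETP replicate 2 at 5.11 (next 6.22) and highest in QUE replicate 2 at 6.81 (next 5.54). CYP1A1 was highest in tBHQ replicate 1 at 4.34 (next 3.48). AHRR was lowest in MMC replicate 1 at 4.76 (next 5.32), and TIPARP highest in DMSO pooled replicate 1 at 9.16 (next 8.93). AHR was lowest in BRO replicate 5 at 7.77 (next 8.26), and CYP1A1 lowest in CUR replicate 5 at 2.96 (next 3.36). The other 4 were CYP1B1 values below 4. CYP1B1 202434_PM_s_at was highest in BRO replicate 6 at 2.21 (next 1.98) and in CUR DMSO replicate 4 at 3.40 (next 2.59). CYP1B1 202436_PM_s_at was highest in MMS CTL replicate 1 at 2.51 (next 2.34), and 202437_PM_s_at in BRO DMSO replicate 3 at 1.68 (next 1.57).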

How the results depend on the processing

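Apart from leaving out single replicates, the 5 called member changes kept direction and call in 56 of 58 recomputations and reversed in none. CYP1A1 with ENU lost its call at 0.18 with group means under 4 set to 4, and at 0.55 without replicate 1 of ENU and DMSO pooled. With the filter at 6 CYP1A1 was not tested, its highest group mean being 4.33. Leaving out single replicates lost its ENU call in 5 of 12 settings. With the replicate number as a block (replicate block) the same 5 changes were called, and 8 further member tests passed an adjusted p of 0.05 under the fold minimum (0.0028 to 0.045). No share of all probe sets without the fold minimum is given for the block. Members called were 0 in ENU with the filter at 6, with the floor of 4 and without replicate 1, and 2 in QUE without QUE replicates 2 and 3, an alternative chosen after seeing the data, as was leaving out replicate 1. With no fold minimum they were 13 in all, against 5, where 19.6% of all tests passed. The 13 were 3 with GAD, 2 with QUE, 2 with CUR, 2 with ENU, 1 with tBHQ, 1 with ETP, 1 with BRO and 1 with MMS.

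Counts of called probe sets over the whole array moved more. With no fold minimum they were 6459 with QUE, 6241 with tBHQ, 726 with CUR, 12852 with GAD, 1194 with NCS, 5937 with MMS, 236 with H2O2, 796 with ETP, 6400 with ENU and 5641 with BRO. With the highest-mean probe set per gene, which tests fewer features, they were 1499 with QUE, 1130 with tBHQ, 253 with CUR, 3011 with GAD, 281 with NCS, 1267 with MMS, 308 with ETP, 1250 with ENU and 850 with BRO. With the mean per gene they were 1006 with QUE, 803 with tBHQ, 161 with CUR, 2282 with GAD, 208 with NCS, 863 with MMS, 68 with H2O2, 215 with ETP, 850 with ENU and 550 with BRO. In 1 fit of all groups they were 751 with CUR, 36 with MMC, 247 with H2O2 and 749 with ETP; the cause was not tested. The replicate block gave 891 with CUR, 77 with MMC, 717 with NCS and 326 with H2O2, and H2O2 had 215 without replicate 1 of both groups.

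Leaving out single replicates gave 0 to 1 members called in ENU, 1 to 2 in MMS, 0 to 1 in CUR, 1 to 2 in QUE and 2 to 3 in GAD, with the CYP1A1 change in ENU at 0.46 to 0.71. For ENU, MMS, QUE and GAD no share of all probe sets is given in those settings, so their counts have no background beside them. In CUR the gain of AHR without CUR 5 came with 901 probe sets called, against 389 in the main fit. Probe sets called ran from 9 to 28 in MMC (main 21), the lowest without MMC 3, with 11 without MMC 2 and 10 without DMSO pooled 4 or 5. They ran from 276 (without DMSO pooled 4) to 805 (without NCS 1) in NCS (main 441). In H2O2 (main 142) they ran from 30 (without H2O2 5) to 249 (without H2O2 1), with 84, 76, 39, 60 and 72 without H2O2 3, H2O2 6 and DMSO pooled 4, 5 and 6. In CUR (main 389) they ran from 188 (without CUR 3) to 901 (without CUR 5), with 218, 206, 211, 202 and 194 without CUR 1, CUR 4, CUR 6, CUR DMSO 1 and CUR DMSO 4. In ETP (main 473) they ran from 293 (without ETP 6) to 720 (without ETP 2), with 298 and 312 without ETP 5 and ETP DMSO 6. Signal over background limits CYP1A1, CYP1B1 and, in GAD and MMS, AHRR.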
